A study of Mus musculus with 10 samples.

Results

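The Notch genes described here are the 10 rows of the deposited gene count table with the symbols Notch1, Notch2, Notch3, Jag1, Jag2, Dll1, Hes1, Hey1, Nrarp and Lfng, out of 22457 rows. All 10 had a row in the table, and all 10 passed the filter on low counts. The counts come from RNA-seq of mouse tracheal epithelial organoids, which are rounded bodies of airway epithelium grown in Matrigel from basal cells, the resident stem cells of the trachea. Organoids of mice labelled Ctrl (3 libraries) and of mice labelled M3-CKO (3 libraries) were compared. Cells were freed from peeled epithelium by enzyme digestion, and no sort is described. The series title names the M3-CKO organoids as a Mettl3 knockout, Mettl3 being the enzyme subunit that writes N6-methyladenosine on mRNA. Organoids of both groups were harvested on day 14 of culture in medium with insulin, transferrin, cholera toxin, epidermal growth factor, pituitary extract and retinoic acid. The expansion medium also held serum, the TGF-beta and BMP receptor inhibitors A83-01 and DMH-1 and, at the start, the ROCK inhibitor Y-27632. A differentiation medium whose listed components include none of these inhibitors is also described, and the day of the change is not stated. No Notch agonist or inhibitor is among the listed components of either. The sources used here do not give the allele, the Cre driver, the strain or the age of the mice, or whether a replicate is a separate mouse. The p-values therefore reflect only the spread among the 6 libraries, which may be technical.

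Notch is a receptor that is activated by a ligand of the Jagged or Delta-like family on a neighbouring cell. Pulling on the bound receptor exposes it to the protease ADAM10 and then to gamma-secretase, and the freed intracellular domain joins RBPJ and a Mastermind protein on DNA to switch on genes of the HES and HEY families. In airway epithelium, Notch signalling directs the daughters of basal cells towards the secretory fate, and cells with little of it can become multiciliated.

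Library totals ran from 8906375 to 10485922 counts, so 10 CPM (CPM: counts scaled to library size, with TMM factors) rest on 87.6 to 104 counts. Mettl3, the targeted gene, measured 14.96, 17.0 and 18.9 CPM in the Ctrl group, in the order of replicates 1 to 3 used throughout, and 11.1, 10.3 and 9.87 CPM in the M3-CKO group. Its groups did not overlap, but the difference did not pass the test over all genes (log2 fold change -0.70, SE 0.21, edgeR adjusted p = 0.12; 0.043 with M3-CKO replicate 3 left out). Where the deletion lies is not stated, so reads from outside it may be counted and this is a weak check of the labels. M3-CKO replicate 3 stood apart: the Pearson r of log2 CPM across genes was 0.925 and 0.914 with M3-CKO replicates 1 and 2, against 0.988 between those 2, and 0.971 to 0.980 within Ctrl. Summed over 10 basal cell markers, the level was 3118 to 3818 CPM in Ctrl and 1697, 1655 and 2591 CPM in M3-CKO. With Aqp3, a water channel, removed, a step chosen after the values were seen, the sums were 2507 to 2960 CPM in Ctrl. In M3-CKO they were then 1522, 1492 and 1463 CPM. These near-equal sums hide opposite differences between genes. Of the 10 markers, 7, Aqp3 among them, were higher in replicate 3 than in both other M3-CKO libraries, and 3 were lower. Itga6, one of those 3, measured 657, 704 and 275 CPM in M3-CKO. Over 10 secretory markers the level was 3404 to 3962 CPM in Ctrl and 2517, 1989 and 5214 CPM in M3-CKO. With Cyp2f2 removed, again after the values were seen, the sums were 797 to 1442 CPM in Ctrl and 1099, 921 and 2421 CPM in M3-CKO. M3-CKO replicates 1 and 2 then lay inside the Ctrl range and replicate 3 above it. These are bulk libraries, in which fewer cells of a type and less RNA per cell cannot be told apart. Of other tissues, endothelium was scarcely detected. The 5 of 10 endothelial markers with a row summed to 1.06 to 2.73 CPM in Ctrl and 2.32 to 3.86 CPM in M3-CKO, with Pecam1 at 0 in 4 of 6 libraries. The 6 of 12 mesenchymal and mural markers with a row summed to 5.13 to 15.1 and 3.05 to 9.24 CPM, with Col1a1 at 0 in every Ctrl library. Pdgfra held most of the Ctrl sum, at 3.38 to 11.8 CPM, and stood at 1.26 to 2.95 CPM in M3-CKO. The 6 of 10 immune markers with a row summed to 63.6 to 91.6 CPM in Ctrl and 39.7 to 100.3 CPM in M3-CKO. Cd68 held most of this, at 53.1 to 81.1 and 37.6 to 93.3 CPM, while Ptprc was at 0 in every M3-CKO library.

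Among the 10 genes, 0 passed the edgeR quasi-likelihood test over all 13528 tested genes at an adjusted p under 0.05, where 2.91% of all tested genes did. At an unadjusted p under 0.05 there were 2 of the 10, Lfng and Hey1, both lower in M3-CKO, and 20.5% of all tested genes reached that level. The DESeq2 Wald test called 1 of the 10, Lfng, where it called 10.4% of all tested genes. The log2 fold change was negative for 8 of the 10 and positive for Notch2 and Hes1, and it was negative for 48.1% of all tested genes. Its median was -0.25, against 0.02 over all tested genes, and its range was -1.22 to 0.18. Without Ctrl replicate 2, the log2 fold change was negative for 5 of the 10.

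**Figure D1:**
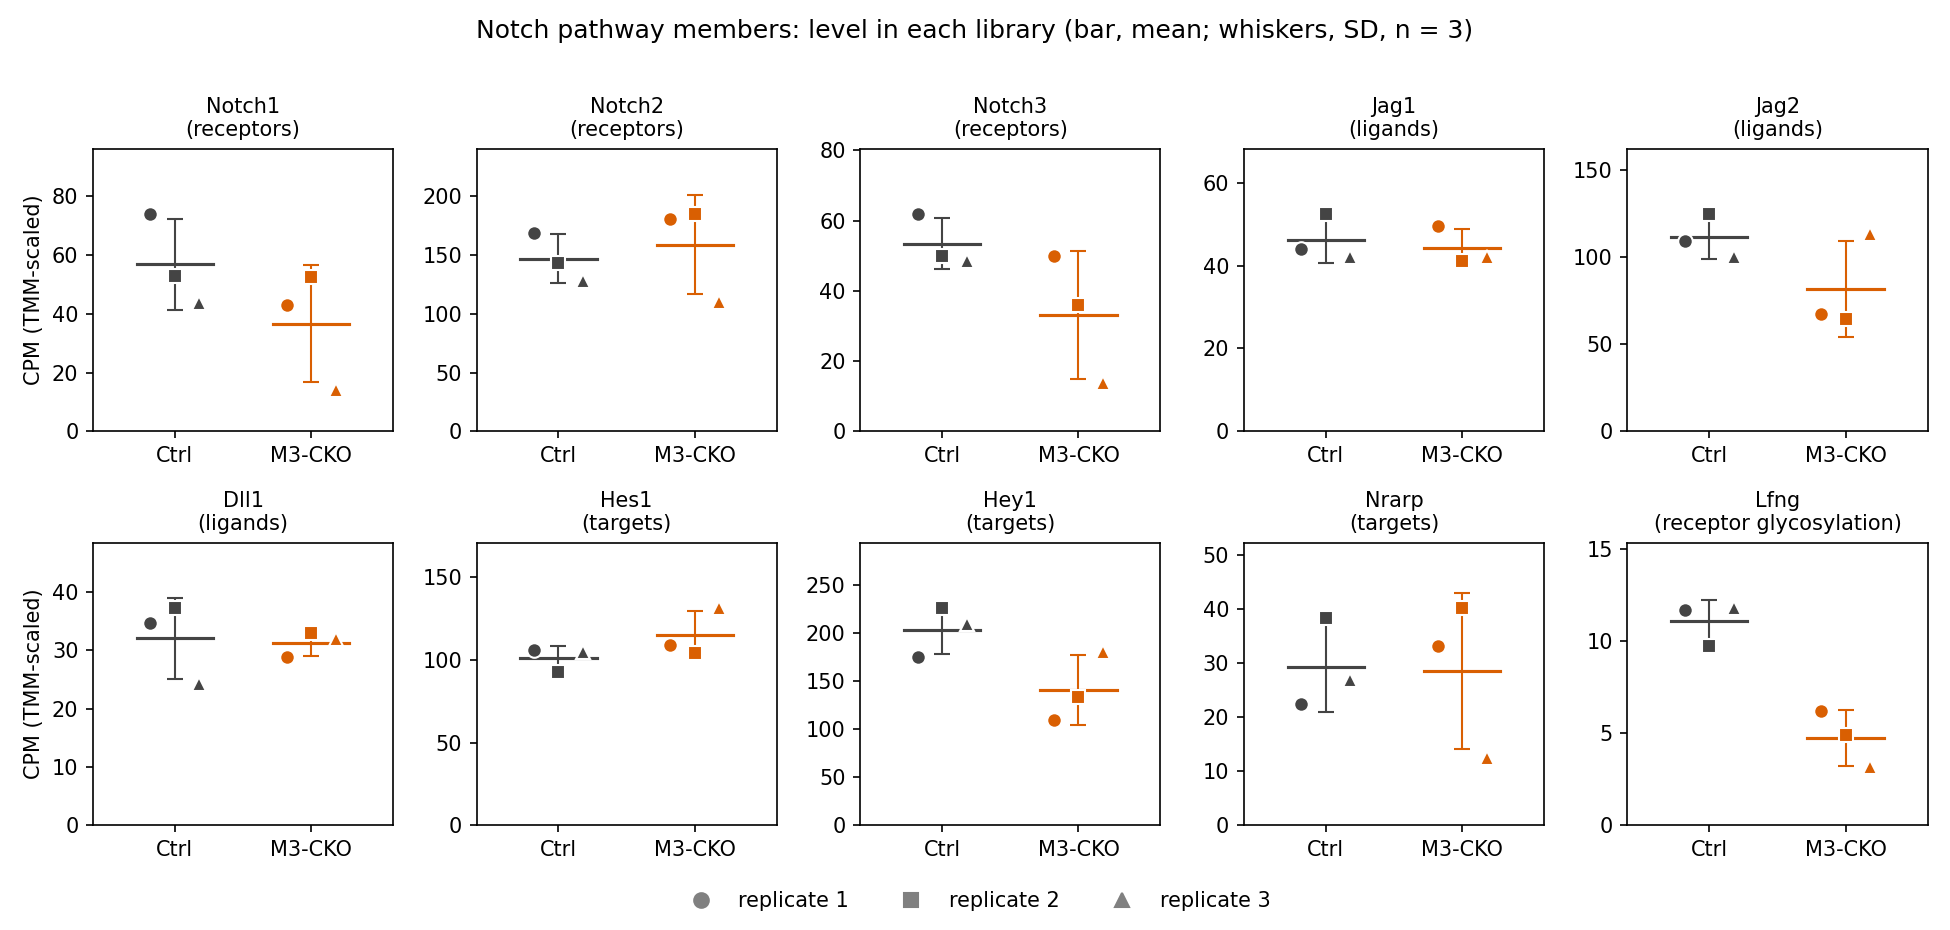
Level of each of the 10 genes in CPM (y axis, from 0, scaled per panel) in Ctrl (grey) and M3-CKO (orange); the marker shape gives the replicate, the bar the mean and the whiskers the SD over 3 libraries. Lfng is the panel in which the groups do not overlap, and M3-CKO replicate 3 (triangle) is the lowest library for Notch1, Notch2, Notch3, Nrarp and Lfng.

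Lfng had the largest difference of the 10. It encodes the Lunatic Fringe glycosyltransferase, which adds N-acetylglucosamine to fucose on Notch receptors and so alters how they answer Delta-like and Jagged ligands. It measured 11.7, 9.73 and 11.8 CPM in Ctrl and 6.18, 4.91 and 3.15 CPM in M3-CKO. All 3 M3-CKO libraries lay below all 3 Ctrl libraries, as for 13.5% of all tested genes. The M3-CKO mean of 4.75 ± 1.52 CPM (SD, n = 3) was 42.9% of that in Ctrl, 11.1 ± 1.16 CPM. The log2 fold change was -1.22 (SE 0.32, 95% interval -1.96 to -0.48), with an edgeR adjusted p of 0.085. That of DESeq2 was 0.013. The counts behind these values were 92 to 107 per Ctrl library and 31 to 64 per M3-CKO library.

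RefSeq start-site windows on build GRCm38.p6, which differs from the mm39 build named for the counts, were found for 8 of the 10 genes (9 windows, since Dll1 has 2); Hes1 and Hey1 were not matched. In the 250 bases before the start, TGGGAA, the core of the sequence that RBPJ binds, was searched on both strands, and so was GTGGGAA, which contains it. TGGGAA was found in 1 of the 9 windows, that of Lfng, and in 21.6% of all 32851 windows of this length. The Lfng window holds 2 matches, 1 on each strand. The match on the gene's own strand is part of a GTGGGAA that begins 109 bases before the start, and 5.42% of all windows hold that longer word. A match is a description of the letters and not a measured binding site. The Lfng window (chr5:140607091-140607340, plus strand) is shown because this gene had the largest difference, with TGGGAA or its reverse complement in capitals. The windows of Notch1 (chr2:26503823-26504072, minus strand), Notch3 (chr17:32166891-32167140, minus strand) and Nrarp (chr2:25180508-25180757, plus strand) follow, because these 3 genes shared a low level in 1 library. The windows of Notch1, Notch3 and Nrarp hold no match and stay in lower case. Each is written 5′ to 3′ on the gene's strand.
Lfng: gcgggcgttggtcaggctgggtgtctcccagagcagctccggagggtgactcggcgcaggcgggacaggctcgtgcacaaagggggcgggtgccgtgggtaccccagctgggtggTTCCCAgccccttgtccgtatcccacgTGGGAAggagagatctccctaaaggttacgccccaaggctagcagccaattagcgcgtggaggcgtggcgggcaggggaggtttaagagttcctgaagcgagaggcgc
Notch1: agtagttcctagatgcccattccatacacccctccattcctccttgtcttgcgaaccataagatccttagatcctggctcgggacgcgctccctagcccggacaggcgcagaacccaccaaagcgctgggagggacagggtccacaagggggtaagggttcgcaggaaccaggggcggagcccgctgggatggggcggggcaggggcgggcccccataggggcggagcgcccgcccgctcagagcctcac
Notch3: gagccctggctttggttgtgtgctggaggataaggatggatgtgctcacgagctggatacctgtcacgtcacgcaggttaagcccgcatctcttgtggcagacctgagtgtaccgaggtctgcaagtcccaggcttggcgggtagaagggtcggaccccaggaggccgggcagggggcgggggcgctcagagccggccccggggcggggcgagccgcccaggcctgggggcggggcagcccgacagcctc
Nrarp: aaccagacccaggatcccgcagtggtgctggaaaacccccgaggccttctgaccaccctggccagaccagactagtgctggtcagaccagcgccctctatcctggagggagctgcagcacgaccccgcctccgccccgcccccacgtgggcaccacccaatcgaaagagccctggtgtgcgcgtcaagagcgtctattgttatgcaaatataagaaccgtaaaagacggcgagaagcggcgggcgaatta

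Of the receptors, Notch1, one of the receptors of airway basal cells, measured 74.0, 52.9 and 43.6 CPM in Ctrl and 43.1, 52.5 and 14.2 CPM in M3-CKO. M3-CKO replicates 1 and 2 lay at or just under the lower Ctrl libraries, and replicate 3 lay below every other library. The log2 fold change was -0.64 (SE 0.44, 95% interval -1.66 to 0.39, edgeR adjusted p = 0.47), and without M3-CKO replicate 3 it was -0.26 (adjusted p = 0.44). Leaving out M3-CKO replicate 2 gave -0.97. Notch3, a receptor that airway basal cells also carry and that is known for priming them towards luminal fates, was also lowest in that library. It stood at 61.9, 50.0 and 48.5 CPM in Ctrl and at 49.9, 35.9 and 13.8 CPM in M3-CKO, where replicate 1 lay inside the Ctrl range and replicates 2 and 3 below it. For Notch3 the log2 fold change was -0.69 (SE 0.41, 95% interval -1.63 to 0.26, adjusted p = 0.39), or -0.32 without M3-CKO replicate 3 (adjusted p = 0.24) and -1.10 without M3-CKO replicate 1. The groups overlapped for both genes.

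Notch2, a receptor with a role in secretory cells, had 169, 143 and 128 CPM in Ctrl and 181, 185 and 110.4 CPM in M3-CKO. Its M3-CKO libraries lay on both sides of the Ctrl range, replicates 1 and 2 above it and replicate 3 below it. Between the groups the log2 fold change was 0.11 (SE 0.23, 95% interval -0.42 to 0.64, adjusted p = 0.83). With M3-CKO replicate 3 left out, Notch2 had 0.31 (adjusted p = 0.13). Relative to the mean of M3-CKO replicates 1 and 2, replicate 3 was lower in all 3 receptors, with a log2 difference of -1.70 for Notch1, -1.58 for Notch3 and -0.73 for Notch2. Over all tested genes, 20.7% differed by more than 1 on that scale in either direction.

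Of the ligands, Jag1 and Dll1 differed little between the groups. Jag1, a Jagged ligand, measured 44.0, 52.4 and 42.0 CPM in Ctrl and 49.5, 41.1 and 42.1 CPM in M3-CKO. Dll1, a Delta-like ligand, measured 34.6, 37.2 and 24.1 CPM in Ctrl and 28.8, 32.9 and 31.9 CPM in M3-CKO. For both the groups overlapped and the means were close: the log2 fold change of Jag1 was -0.06 (SE 0.17, 95% interval -0.45 to 0.33, adjusted p = 0.88). For Dll1 it was -0.04 (SE 0.21, 95% interval -0.52 to 0.45, adjusted p = 0.94). M3-CKO replicate 3 lay within the range of the other libraries for these 2 ligands.

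Jag2, the other Jagged ligand, measured 109.5, 125.0 and 99.96 CPM in Ctrl and 67.6, 64.6 and 113.6 CPM in M3-CKO. M3-CKO replicates 1 and 2 lay below every other library, and replicate 3 lay inside the Ctrl range. Jag2 had a log2 fold change of -0.44 (SE 0.24, 95% interval -1.002 to 0.11, edgeR adjusted p = 0.35). With M3-CKO replicate 3 left out, this became -0.76 (SE 0.13, adjusted p = 0.0059). Trp63, the basal cell transcription factor, had a like order, at 185 to 269 CPM in Ctrl and 111, 103 and 196 CPM in M3-CKO. Of the 10 basal markers, 7 were higher in M3-CKO replicate 3 than in both replicates 1 and 2, and 3 (Krt14, Itga6 and Itgb4) were lower. Their part in the Jag2 level was not tested.

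Among the targets, Hey1, a basic helix-loop-helix repressor switched on by Notch, had the profile of Jag2. It measured 176, 226 and 209 CPM in Ctrl and 109.5, 133 and 181 CPM in M3-CKO. M3-CKO replicates 1 and 2 were the lowest of the 6 libraries, and replicate 3 lay just above Ctrl replicate 1. Hey1 had a log2 fold change of -0.53 (SE 0.21, 95% interval -1.03 to -0.03), with an unadjusted p of 0.039 and an edgeR adjusted p of 0.22. Leaving M3-CKO replicate 3 out gave -0.75 (SE 0.15, adjusted p = 0.0098).

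Hes1, the repressor that is the classic Notch target, differed little between the groups. It stood at 106, 92.8 and 105 CPM in Ctrl and at 109, 104 and 131 CPM in M3-CKO. M3-CKO replicate 3 was the highest library, and replicates 1 and 2 lay near the top of the Ctrl range. Between the groups the log2 fold change was 0.18 (SE 0.15, 95% interval -0.17 to 0.54, adjusted p = 0.55). This interval holds neither a doubling nor a halving. Hes1 was thus on the opposite side of 0 from Hey1, and the difference between the 2 targets was not tested.

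Nrarp, a target whose protein feeds back on the Notch transcription complex, measured 22.5, 38.4 and 26.8 CPM in Ctrl and 33.1, 40.2 and 12.4 CPM in M3-CKO. M3-CKO replicate 1 lay inside the Ctrl range, replicate 2 just above it, and replicate 3 was below every other library, at a log2 difference of -1.52 from the mean of those 2. The group means of 29.2 ± 8.21 and 28.6 ± 14.4 CPM (SD, n = 3) were close despite this split. The log2 fold change was -0.03 (SE 0.42, 95% interval -1.01 to 0.94, adjusted p = 0.97), and 0.32 without M3-CKO replicate 3 (adjusted p = 0.34). A halving thus lay just inside the interval for Nrarp, and a doubling just outside it.

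**Figure D2:**
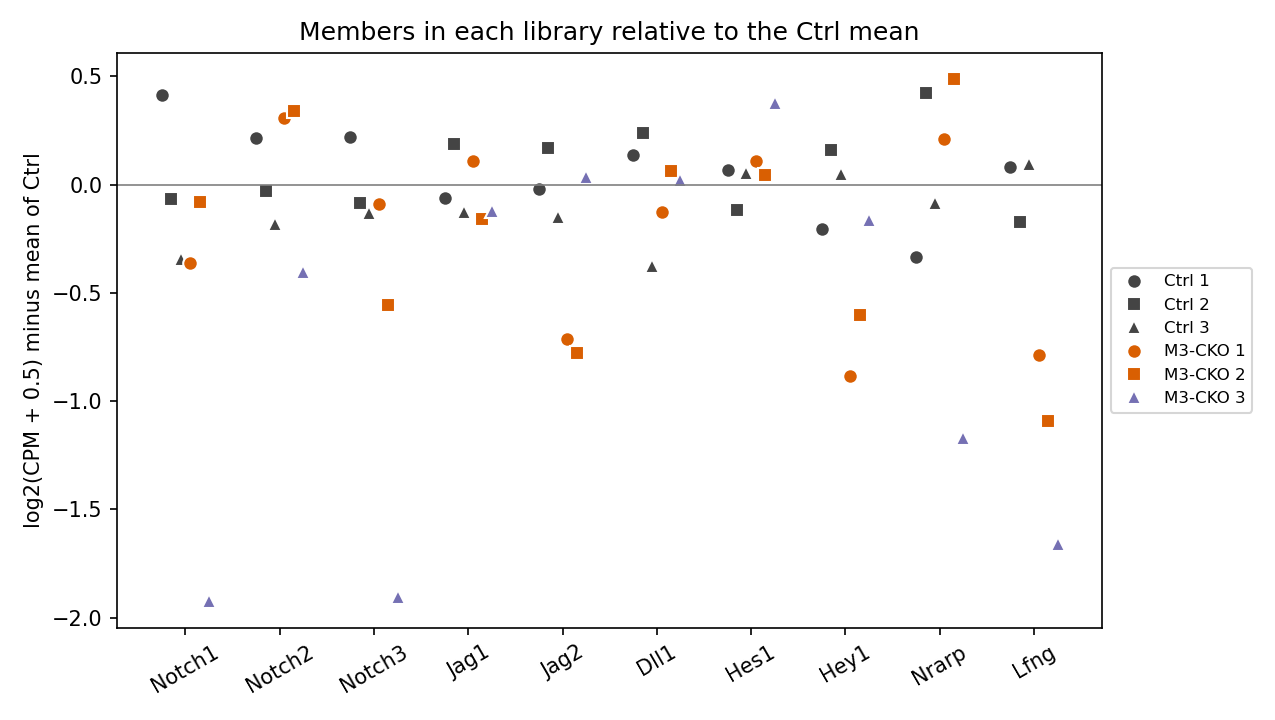
Each library's log2(CPM + 0.5) minus the mean of the 3 Ctrl libraries (y axis) for the 10 genes (x axis); grey, Ctrl; orange, M3-CKO replicates 1 and 2; purple, M3-CKO replicate 3. Replicate 3 lies near -1.9 for Notch1 and Notch3 and at -1.17 for Nrarp, while for Jag2 and Hey1 it lies near 0 and replicates 1 and 2 lie lower.

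The 3 M3-CKO libraries thus placed the Notch genes in different ways. M3-CKO replicate 3 was the lowest of the 6 libraries for 5 of the 10 (Notch1, Notch2, Notch3, Nrarp and Lfng), as for 25.9% of all tested genes. M3-CKO replicates 1 and 2 were both below every other library for 2 of the 10 (Jag2 and Hey1), as for 20.9% of all tested genes. This way of sorting the genes was chosen after their values were seen. The secretoglobins of secretory cells set replicate 3 apart too: Scgb3a2 measured 30.2 to 37.3 CPM in Ctrl and 22.7, 9.81 and 247 CPM in M3-CKO, and Scgb1a1 2.81 to 5.57 CPM in Ctrl and 83.2, 37.5 and 359 CPM in M3-CKO. The motile cilia regulator Foxj1 measured 11.6, 9.09 and 34.8 CPM in Ctrl and 73.2, 58.7 and 28.8 CPM in M3-CKO, so that here replicate 3 was the lowest of its group. The other multiciliated markers did not all share this order: of 11 with a row, 5 were lower in replicate 3 than in both other M3-CKO libraries and 4 were higher. The sum of the 11 was 559 to 602 CPM in Ctrl and 600.1, 563 and 828 CPM in M3-CKO, and with Tubb4b, which holds most of it, removed, 63.0 to 105 CPM in Ctrl and 130.4, 99.4 and 77.6 CPM in M3-CKO. Whether these cell type markers account for the Notch levels was not tested.

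Without M3-CKO replicate 3, 3 of the 10 genes fell (Jag2, Hey1 and Lfng) and 0 rose, where 25.0% of all tested genes were called in that fit and 11.3% of all tested genes were called lower. For Lfng the log2 fold change was then -0.996 (SE 0.25, adjusted p = 0.024). That fit rests on M3-CKO replicates 1 and 2, which were closer to each other than any pair of Ctrl libraries. Without any other single library, 0 of the 10 were called. Those fits called only 0 to 18 of all tested genes, so this count says little about the Notch genes.

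**Figure D3:**
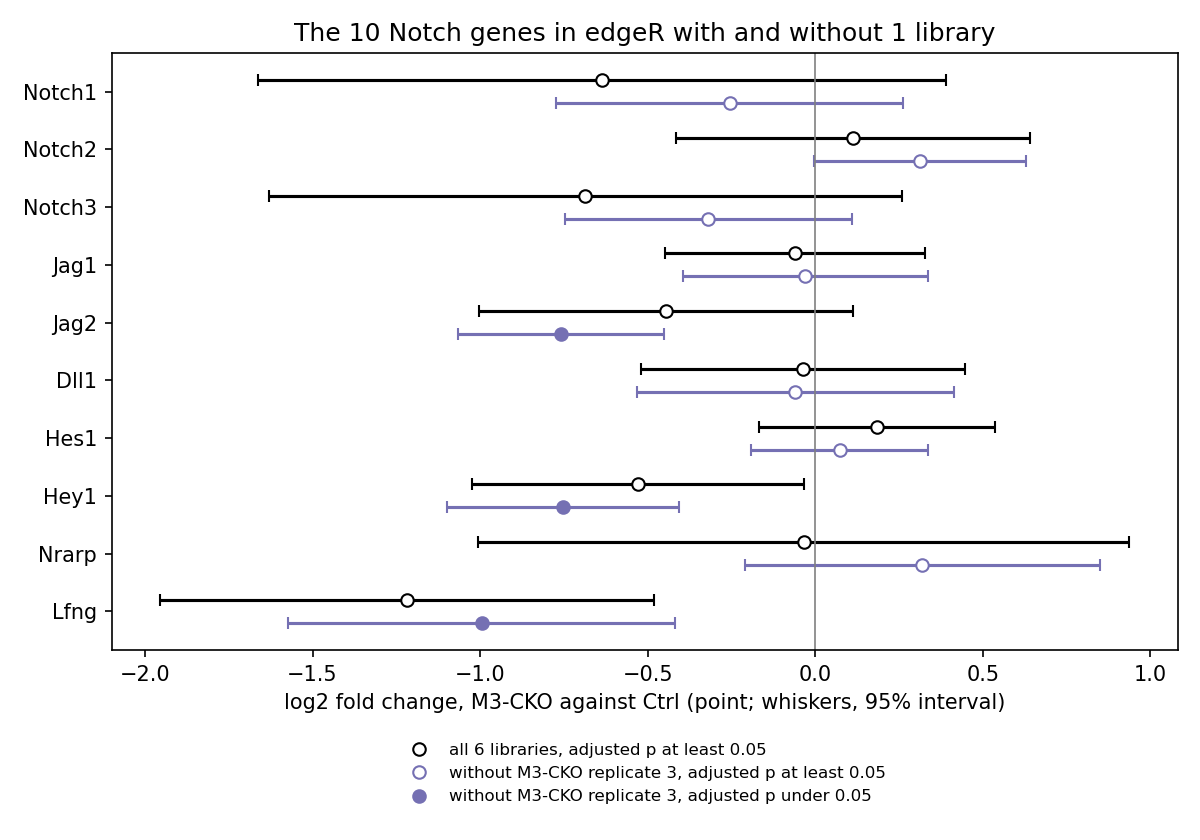
Log2 fold change of M3-CKO against Ctrl (x axis) for each gene (y axis) with its 95% interval, from edgeR with all 6 libraries (black) and without M3-CKO replicate 3 (purple); filled points passed an adjusted p under 0.05. With all 6 libraries no point is filled; without replicate 3 Jag2, Hey1 and Lfng are, at -0.76, -0.75 and -0.996.

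A list of 72 other genes of the pathway was read from the same fit. Of these, 68 had a row and 61 were tested: 2 rose, 1 fell and 58 were not called, a called share of 4.92% beside the 2.91% of all tested genes. The median log2 fold change was -0.01. The DESeq2 Wald test called 3 higher and 4 lower, a share of 11.5% beside the 10.4% of all tested genes that it called. The 3 genes called by edgeR act at different steps of the pathway.

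Epn2 encodes an epsin, an endocytic adaptor of the kind that ligand-bearing cells use to pull on Notch. It rose from 97.8, 93.2 and 102 CPM in Ctrl to 179, 186 and 141 CPM in M3-CKO, with no overlap (log2 fold change 0.79, SE 0.16, edgeR adjusted p = 0.046). Adam10, the protease that makes the first ligand-induced cut in the receptor, rose from 212, 266 and 234 CPM to 420.3, 421 and 373 CPM. All M3-CKO libraries lay above all Ctrl libraries for Adam10, and the mean in M3-CKO was 171% of that in Ctrl (log2 fold change 0.77, SE 0.15, adjusted p = 0.047). Over all tested genes, M3-CKO lay wholly above Ctrl in 1847 of 13528. Maml2, a Mastermind coactivator of the Notch-RBPJ complex, fell from 99.6, 93.8 and 79.0 CPM to 46.0, 47.6 and 38.9 CPM. The M3-CKO mean of 44.1 ± 4.64 CPM (SD, n = 3) was 48.6% of that in Ctrl, 90.8 ± 10.6 CPM (log2 fold change -1.04, SE 0.16, adjusted p = 0.029). In these 3 genes M3-CKO replicate 3 sat with its group. Each of the 3 was also called without M3-CKO replicate 3, where 25.0% of all tested genes were called. Each lost its call when any other single library was left out. The edgeR adjusted p was then 0.14 to 0.19 for Epn2, 0.14 to 0.21 for Adam10 and 0.095 to 0.14 for Maml2. Those fits called only 0 to 18 of all tested genes, so the loss was not particular to these 3.

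**Figure D4:**
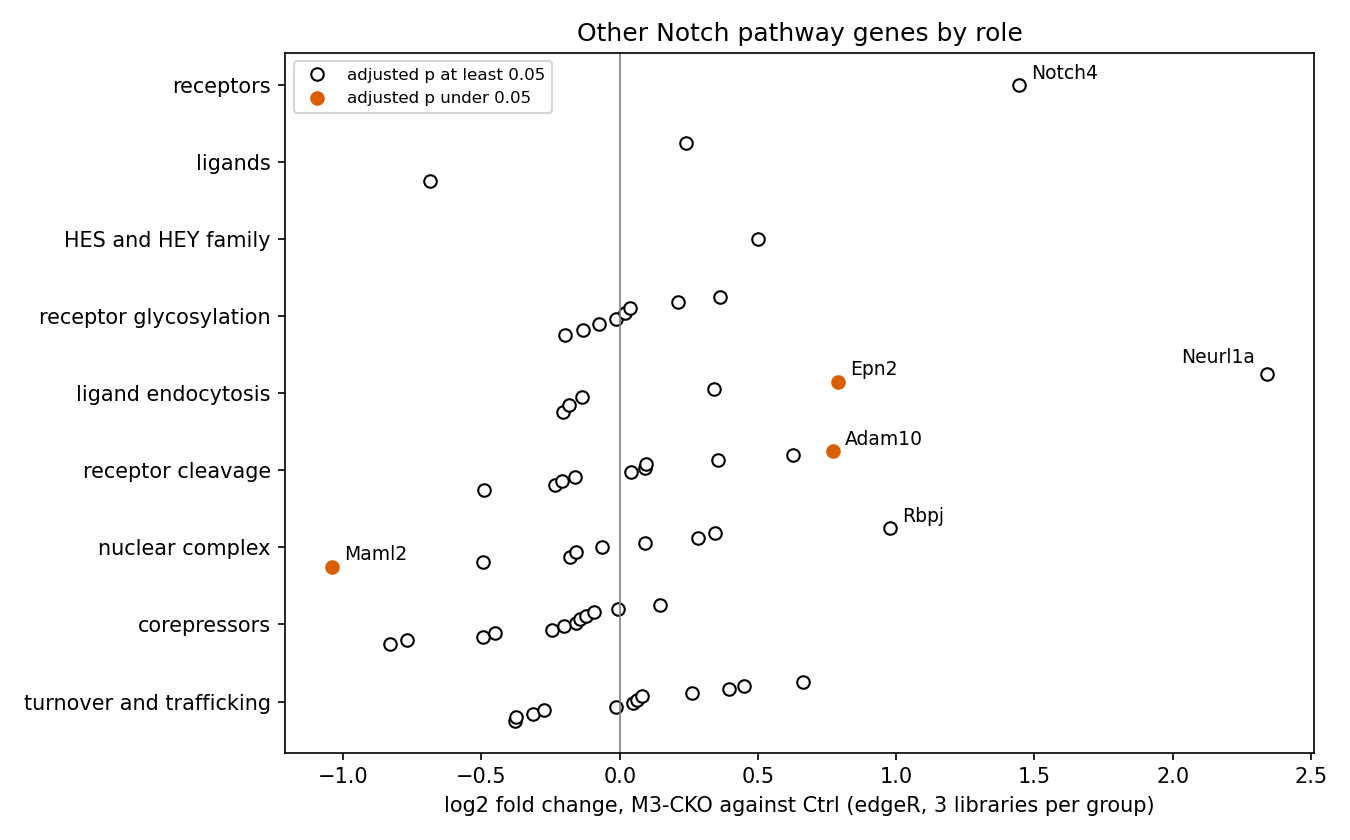
Log2 fold change of M3-CKO against Ctrl (x axis) for the 61 other Notch pathway genes tested, by role (y axis); orange, adjusted p under 0.05 in edgeR; names are given for those and for genes beyond 0.9 in either direction. Epn2 (0.79) and Adam10 (0.77) lie to the right and Maml2 (-1.04) to the left.

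Notch4, the receptor best known from endothelium, was low, at 1.201, 2.01 and 1.35 CPM in Ctrl and 2.90, 7.19 and 2.44 CPM in M3-CKO. These levels rest on 11 to 19 counts per Ctrl library and 24 to 63 per M3-CKO library. Its M3-CKO libraries lay above all Ctrl libraries, as for 1847 of 13528 tested genes. The log2 fold change of 1.44 (SE 0.54, edgeR adjusted p = 0.18) was not called. Notch4 was called without M3-CKO replicate 3, at 1.71 (adjusted p = 0.040), in a fit that called 25.0% of all tested genes. It was not called without replicate 3 of both groups (1.63, adjusted p = 0.094), and stood at 0.82 without M3-CKO replicate 2. Of the other ligands, Dll4 and Dlk2 were tested and not called, and Dll3 had counts in 1 library. Dlk2, a Delta-like protein without the domain that activates Notch, measured 22.5, 20.3 and 17.5 CPM in Ctrl and 7.72, 7.53 and 22.2 CPM in M3-CKO. It thus repeated the order of Jag2, with M3-CKO replicate 3 inside the Ctrl range (log2 fold change -0.69, SE 0.43, adjusted p = 0.42). With that library left out, Dlk2 was called, at -1.40 (adjusted p = 0.0029).

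Of the 8 other HES and HEY family genes listed, 5 had a row and 1 was tested. That was Hes6, a family member that counteracts Hes1, at 94.2, 67.3 and 104 CPM in Ctrl and 77.7, 75.1 and 223 CPM in M3-CKO. M3-CKO replicate 3 was the highest library, and replicates 1 and 2 lay inside the Ctrl range (log2 fold change 0.50, SE 0.43, edgeR adjusted p of 0.57). Its sign turned with replicate 3 left out, to -0.22 without that library and -0.09 without replicate 3 of both groups. Those of the remaining genes of this family that had a row showed mean levels under 1 CPM in both groups.

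Of 8 other enzymes tested that put sugars on Notch, 0 were called by edgeR or DESeq2 and 0 reached an unadjusted p under 0.05. Over all tested genes these shares were 2.91% for edgeR, 10.4% for DESeq2 and 20.5% for the unadjusted edgeR p. The log2 fold changes of the 8 ran from -0.20 to 0.36. The lowest p was that of Poglut1, which adds the first glucose to the receptor, at 47.4 ± 4.77 CPM in Ctrl and 61.0 ± 6.34 CPM in M3-CKO (SD, n = 3; log2 fold change 0.36, edgeR adjusted p = 0.25). The other fringe genes were Rfng, with a log2 fold change of -0.08 (adjusted p = 0.94) that became -0.78 without M3-CKO replicate 3 (adjusted p = 0.015), and Mfng, which had under 1 CPM in every library and was not tested. Both fringe genes were chosen after their values were seen.

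The counts by role that follow stand beside 2.91% of all tested genes called by edgeR and 10.4% called by DESeq2. An unadjusted edgeR p under 0.05 was reached by 20.5% of all tested genes. Among 10 tested genes of receptor cleavage, which include the subunits of gamma-secretase, Adam10 was the only one called, and the others had log2 fold changes from -0.49 to 0.63. In the nuclear complex, 1 of 9 tested was called by edgeR (Maml2) and 2 by DESeq2, which added Kat2b, a histone acetyltransferase (log2 fold change -0.49, DESeq2 adjusted p = 0.016; edgeR 0.093). Rbpj, the DNA-binding protein through which Notch acts, measured 148, 118 and 135 CPM in Ctrl and 318, 354 and 118 CPM in M3-CKO (picked once its values had been seen). Its M3-CKO replicates 1 and 2 were above every Ctrl library, and replicate 3 was at the lowest Ctrl level (log2 fold change 0.98, SE 0.37, adjusted p = 0.19; leaving out M3-CKO replicate 3 gave 1.32 and 0.00068). Of 12 corepressors 0 were called by edgeR, with 3 at an unadjusted p under 0.05, and 2 by DESeq2 (Tle4 and L3mbtl3). The log2 fold change was negative for 11 of the 12, against 48.1% of all tested genes. Without M3-CKO replicate 3 it was negative for 7 of the 12, against 51.7% of all tested genes. The lowest p was that of Tle4, a Groucho-type corepressor that HES proteins recruit, with 20.9 ± 3.75 CPM in Ctrl and 11.8 ± 2.42 CPM in M3-CKO (log2 fold change -0.83, edgeR adjusted p = 0.12; DESeq2 adjusted p = 0.045). L3mbtl3 had a log2 fold change of -0.77 (edgeR adjusted p = 0.13; DESeq2 adjusted p = 0.0498). Of 12 genes of receptor turnover and trafficking 0 were called by edgeR or DESeq2, with 2 at an unadjusted p under 0.05. The lowest p was that of Itch, a ubiquitin ligase that acts on Notch, at 172 ± 6.29 CPM in Ctrl and 132 ± 7.88 CPM in M3-CKO (log2 fold change -0.38, edgeR adjusted p = 0.17; 0.024 without M3-CKO replicate 3).

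Over the 6 libraries, the genes with the pattern most like that of Lfng were Sh3rf2, Eef2k, which encodes the kinase of elongation factor 2, and Lratd1. Their root mean square differences from Lfng, on log2 values centred per gene, were 0.13, 0.14 and 0.15, against an SD of 0.71 for Lfng itself. For Hey1, which had the highest mean CPM of the 10 genes with no correction for length, they were Fermt1, which encodes the integrin adaptor kindlin-1, Vrk3, and Mecom, a zinc finger transcription factor. Those differences were 0.071, 0.074 and 0.080, against an SD of 0.40 for Hey1. They were the closest of 10551 genes with a mean of at least 5 CPM, over 6 libraries that share the split within M3-CKO.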

How the data were processed

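RNA-seq libraries of Ctrl and M3-CKO organoids (3 each) were used; the 4 libraries of m6A immunoprecipitation and its input were not analysed here. The deposited counts are whole, unnormalized numbers per gene symbol. The submitters' processing notes name HISAT2, featureCounts, Trim Galore and build mm39. Versions, annotation, strand setting and the treatment of multiply mapped reads are not given in those sources, so overlapping or antisense genes can share reads. Gene lengths were not used. The sums over marker lists, the part of single genes in them and the ranking by mean CPM therefore carry no length correction. Levels of different genes are not compared otherwise.

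Counts were tested with edgeR 4.0.16 in R 4.3.3: filterByExpr kept 13528 of 22457 genes, libraries were scaled by TMM, and the quasi-likelihood test compared M3-CKO with Ctrl, two-sided, with no covariate and Benjamini-Hochberg adjustment over all tested genes (called under 0.05). The SE is the log2 fold change over the root of the F statistic. Exact permutation of 3 against 3 libraries cannot go below 0.1. The steps were tested on simulated data. Alternatives were the Wald test of DESeq2 1.42.0, its size factors in edgeR, scaling by library size, limma-voom (limma 3.58.1), other filters, a replicate block, and each library left out in turn; leaving out replicate 3 of both groups was added after seeing the data.

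The 10 genes and the lists were chosen with earlier results of these data known. The naming rule covers the 10 genes, Mettl3, in each role of the other pathway genes every called gene or else the one with the lowest p, 5 cell type markers (Krt5, Trp63, Scgb1a1, Scgb3a2 and Foxj1), and the 3 genes closest in pattern to the gene with the lowest p and to the one with the highest mean CPM. Krt5 measured 429 ± 106 CPM in Ctrl and 122 ± 28.7 CPM in M3-CKO (SD, n = 3).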

Additional observations from a re-analysis of the deposited data

How the results depend on the processing

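With DESeq2 size factors, library size alone, limma-voom or a filter at a mean of 5 CPM, the count of called Notch genes stayed at 0 of 10 and that of the other pathway genes at 2 or 3. The DESeq2 Wald test called 1 of the 10, 7 of the other pathway genes and 1402 of all genes. Without a low-count filter, 740 of 22457 genes were called, against 393 of 13528 in the main fit. The counts of the Notch genes and of the other pathway genes stayed at 0 and 3 there. Leaving out 1 library at a time gave 0 to 3 of the 10, 0 to 18 of the other pathway genes and 0 to 3483 of all genes. Every highest value was reached without M3-CKO replicate 3. In that fit 29.5% of the 61 other pathway genes tested were called, beside 25.0% of all tested genes. Leaving out replicate 3 of both groups gave 2 of the 10, 15 of the 61 and 2624 of 13652 tested genes. With the replicate number as a block, 0 of the 10, 0 of the other pathway genes and 20 of all genes were called; same-numbered libraries did not deviate together (r of deviations across genes -0.02, 0.02 and -0.11), so the numbers are not taken as pairs. The cause of these shifts was not tested. The signs for Notch1, Notch3, Jag2, Hey1 and Lfng (negative) and for Notch2 and Hes1 (positive) held in the 14 alternatives run, while those of Jag1, Dll1 and Nrarp changed with the library left out. Lfng, with 31 to 107 counts per library, is the least deeply counted of the 10.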

Other observations

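Several other pathway genes also set M3-CKO replicate 3 apart from replicates 1 and 2. They were chosen after their values were seen, and none was called with all 6 libraries. M3-CKO replicates 1 and 2 were both below every other library for 23.0% of the other pathway genes tested and 20.9% of all tested genes. They were both above every other library for 23.0% and 20.6%. Replicate 3 was the lowest library for 34.4% and 25.9%. Rfng, a fringe gene, stood at 42.3, 36.6 and 31.7 CPM in Ctrl and 21.3, 21.8 and 61.6 CPM in M3-CKO, and Neurl1b, a ubiquitin ligase of Notch ligands, at 52.6, 60.4 and 53.6 CPM and 30.3, 31.5 and 82.7 CPM. In both genes M3-CKO replicates 1 and 2 lay below every other library and replicate 3 above every other library. Dtx4, a Deltex ubiquitin ligase, stood at 51.5, 43.0 and 48.4 CPM in Ctrl and 96.4, 86.7 and 43.2 CPM in M3-CKO. Maml1, a paralogue of Maml2, had 97.8, 88.9 and 86.9 CPM in Ctrl and 131, 138 and 63.8 CPM in M3-CKO. In both of these M3-CKO replicates 1 and 2 lay above every other library. Replicate 3 was at the lower end of the Ctrl range for Dtx4 and below every other library for Maml1. Mib1, the main ubiquitin ligase of Notch ligands, ran from 226 to 242 CPM over the Ctrl libraries and stood at 236, 237 and 143 CPM in M3-CKO.

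Neurl1a had the largest log2 fold change of the other pathway genes, at 2.34 (SE 0.62, edgeR adjusted p = 0.087; DESeq2 adjusted p = 0.037). It measured 0.218, 0.634 and 0.449 CPM in Ctrl and 3.38, 2.17 and 1.22 CPM in M3-CKO. These levels rest on 2, 6 and 4 counts in Ctrl and 35, 19 and 12 in M3-CKO, so the fold change is a ratio near the floor. All M3-CKO libraries lay above all Ctrl libraries, as for 1847 of 13528 tested genes. Neurl1a was chosen after its values were seen.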
